A study of Mus musculus with 18 samples.

Results

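The 8 mucin genes described here are the membrane mucins Muc1, Muc3, Muc4, Muc13 and Muc20 and the gel-forming mucins Muc5ac, Muc5b and Muc6. They were taken by gene name, and all 8 were found among the 54532 gene identifiers of the count tables. The 18 libraries hold poly(A) RNA of C57BL/6 mice of the Il1f5 line and the Il1f9 line, each with knockouts (KO, -/-) and their own wild types (WT, +/+). Il1f5 encodes the antagonist of the interleukin-36 receptor and Il1f9 encodes interleukin-36 gamma, one of its agonists. Tumours came from the colorectum after azoxymethane, a mutagen, and dextran sulfate sodium (DSS), a polymer that injures the colon epithelium, with 2 libraries each of Il1f5 KO, Il1f5 WT, Il1f9 KO and Il1f9 WT. Colitis libraries came from 0.5 cm of distal colon of mice given 2.5% DSS for 5 days and plain water for 2 days, with 3 libraries each of Il1f5 KO and Il1f5 WT and 2 each of Il1f9 KO and Il1f9 WT. No library of an untreated colon was used here, so each knockout and each wild type had received DSS. Age, sex, the construction of the alleles and whether a tumour library pools several tumours are not given in the sources used here.

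Membrane mucins are large O-glycosylated proteins anchored in the apical membrane of epithelial cells, where they form the glycocalyx and carry signalling tails or growth factor-like domains. Gel-forming mucins are secreted and build mucus: Muc2 makes the mucus of the colon, Muc5ac that of the gastric surface and, with Muc5b, of the airways, and Muc6 that of the deep glands of the stomach and of duodenal glands. In a healthy colon the gastric-type mucins are scarce, and their appearance in colorectal neoplasia is a known feature in humans.

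Library totals ran from 16621611 to 23776174 counts. Il1f9 was at 0.11 and 0 CPM (the count scaled to the library total) in tumours and 0.51 and 0.05 CPM in colitis of Il1f9 KO mice, against 87.1 and 38.4 CPM in tumours and 11.8 and 4.83 CPM in colitis of the matching WT. Il1f5 went against its label: the libraries labelled Il1f5 KO held 9.80 and 5.68 CPM in tumours and 2.06, 2.20 and 2.54 CPM in colitis, and all 5 libraries labelled Il1f5 WT were at 0. Every direction for that line below therefore rests on the labels as given. The labels do not say which libraries, if any, share a litter or day, so p-values measure the spread between these libraries. The tissues, and in tumours the lines, are in separate tables, so that tissue or line, table and any batch of preparation cannot be told apart.

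The levels of the 8 genes spanned several orders of magnitude, and 2 membrane mucins made up nearly all of the signal. On the authors' FPKM scale, which divides counts by gene length and library size, Muc13 averaged 481 ± 93.4 in tumours (SD, n = 8) and 641 ± 95.7 in colitis (SD, n = 10). Muc3 averaged 114 ± 88.1 FPKM in tumours and 942 ± 241 FPKM in colitis. In tumours the next genes were Muc1 at 10.8 ± 4.60 FPKM and Muc4 at 10.6 ± 2.33 FPKM, which did not differ beyond their spread, followed by Muc6 at 3.21 ± 2.86 FPKM and Muc20 at 1.93 ± 1.07 FPKM, which overlapped as well. In colitis the order was Muc3, Muc13, Muc4 at 13.6 ± 2.57 FPKM, Muc1 at 2.98 ± 1.32 FPKM, Muc20 at 0.36 ± 0.09 FPKM and Muc6 at 0.18 ± 0.08 FPKM. Muc5ac and Muc5b stood last in each tissue.

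Muc13 took 65.3 to 87.5% of the FPKM summed over the 8 genes in tumour libraries (median 77.0%), against 30.5 to 53.2% in colitis libraries (median 41.5%). Muc3 took 5.42 to 32.6% in tumours (median 18.3%), against 45.6 to 68.7% in colitis (median 57.2%). Among these 8 genes the FPKM was thus split between Muc3 and Muc13 in every colitis library and was mostly Muc13 in every tumour library. Muc3a, of the same mucin group as Muc3 but not among the 8, is outside these shares. It averaged 121 ± 28.1 FPKM in colitis and 9.62 ± 10.7 FPKM in tumours. The summed FPKM was 446 to 927 in tumours and 1211 to 1998 in colitis. The gene model behind the Muc3 length holds 1943 exon bases, and its start lies 16724 bases from the start of the RefSeq model, so the FPKM of Muc3 rests on a short model.

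**Figure D1:**
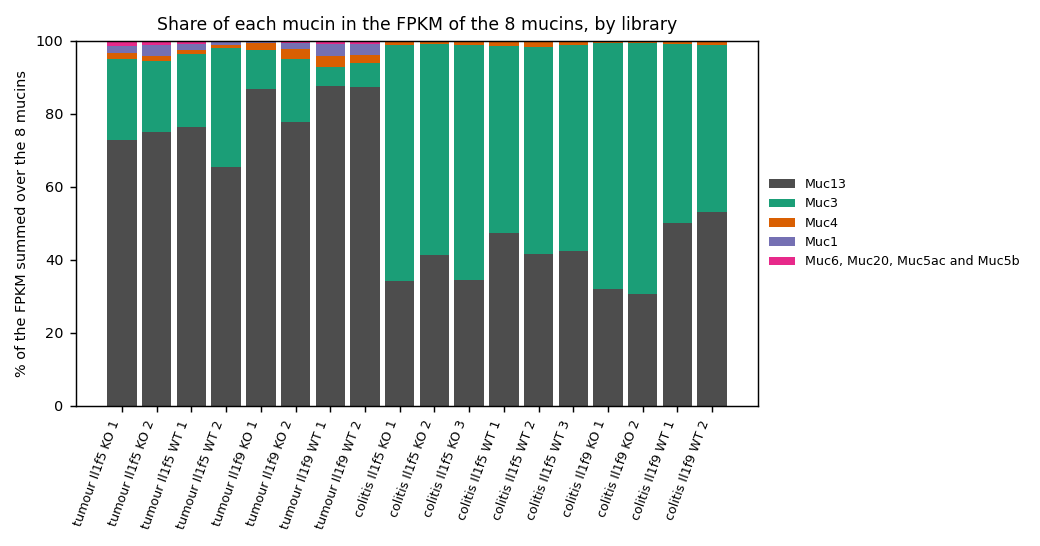
Share of each mucin in the FPKM summed over the 8 genes (y axis, %), 1 bar for each of the 18 libraries, with tumours on the left. Muc13 is at 65.3 to 87.5% in the tumour bars and at 30.5 to 53.2% in the colitis bars.

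The comparison of tumours with colitis asked how the mucin repertoire of a tumour differs from that of the inflamed colon. All 6 members that passed the filter on low counts were called at a Benjamini-Hochberg adjusted p under 0.05 by edgeR's quasi-likelihood test, 3 higher and 3 lower in tumours. Of 19514 genes tested 72.6% were called (36.5% higher and 36.1% lower), a share so high that the count says little, so that sizes are given. The median log2 fold change over the 6 was 0.86, against -0.01 over all genes. That median falls in the gap between the 3 higher and the 3 lower members and describes none of them. Muc6 was 13.4-fold, Muc20 5.14-fold and Muc1 3.95-fold higher in tumours, while Muc3 was 10.0-fold, Muc13 1.29-fold and Muc4 1.20-fold lower. Fewer cells of a type and less RNA per cell cannot be told apart in bulk tissue. Muc5ac and Muc5b did not pass the filter.

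Muc6, the gland mucin of the stomach, had 66.6 and 52.2 CPM in tumours labelled Il1f5 KO, 59.5 and 27.0 CPM in Il1f5 WT tumours, 8.20 and 8.50 CPM in Il1f9 KO tumours and 4.80 and 11.6 CPM in Il1f9 WT tumours. In colitis its median was 1.36 CPM over 10 libraries, with a range of 0.74 to 3.26 CPM. The tissues did not overlap, and the 4 tumour libraries of the Il1f5 line lay above the 4 of the Il1f9 line. The log2 fold change, tumour over colitis, was 3.75 ± 0.26 (SE; edgeR adjusted p = 2.02e-08).

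Muc20, a small membrane mucin that in human cells binds the receptor Met, had 3.99 and 6.57 CPM in tumours labelled Il1f5 KO, 4.86 and 3.61 CPM in Il1f5 WT, 5.90 and 9.55 CPM in Il1f9 KO and 15.3 and 12.3 CPM in Il1f9 WT tumours. Colitis libraries held 0.80 to 2.17 CPM (median 1.43 CPM, n = 10). Every tumour library was above every colitis library, and the log2 fold change was 2.36 ± 0.16 (edgeR adjusted p = 2.51e-09). The 3' part of Muc20 overlaps that of Muc4 on the opposite strand: 627 exon bases are shared, which are 15.6% of Muc20 and 5.33% of Muc4. The library kit does not mark strand, so reads in those bases cannot be assigned to either gene. Muc4 counts were 10.0 to 29.6 times those of Muc20 in tumours and 76.4 to 149 times in colitis. Muc4 itself was lower in tumours over both lines together and higher in tumours within the Il1f9 line, averaged over its genotypes.

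Muc1, whose tail binds growth factor receptors and catenins, had 23.8 and 41.8 CPM in tumours labelled Il1f5 KO, 27.7 and 17.7 CPM in Il1f5 WT, 7.02 and 20.7 CPM in Il1f9 KO and 32.9 and 31.8 CPM in Il1f9 WT tumours. In colitis its level was 3.63 to 13.0 CPM (median 6.30 CPM, n = 10). Replicate 1 of Il1f9 KO tumours lay within the range of colitis, and the other 7 lay above it. The log2 fold change was 1.98 ± 0.24 (edgeR adjusted p = 4.88e-06).

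Muc3, the mucin of the intestinal brush border in rodents, had 235.0 and 228.9 CPM in tumours labelled Il1f5 KO, 300.6 and 620.9 CPM in Il1f5 WT, 145.4 and 169.1 CPM in Il1f9 KO and 46.9 and 57.4 CPM in Il1f9 WT tumours. Colitis libraries held 1158 to 2494 CPM (median 1710 CPM, n = 10). The tissues did not overlap, and tumours of the Il1f5 line held more than those of the Il1f9 line. The log2 fold change was -3.33 ± 0.15 (edgeR adjusted p = 3.09e-11). Muc3a, a neighbouring gene of the same mucin group 59.49 kb away on chromosome 5, had 1.16 to 60.6 CPM in tumours and 157 to 357 CPM in colitis, with a log2 fold change of -4.65 ± 0.22 (edgeR adjusted p = 7.22e-10). The transcripts of Muc3 and Muc3a share no stretch of 31 bases, so their reads are not split between them.

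Muc13 and Muc4 differed far less between tissues over both lines together. Muc13, a membrane mucin with growth factor-like domains, ran from 1185 to 1943 CPM in tumours (median 1298 CPM) and from 1654 to 2589 CPM in colitis (median 1864 CPM). Muc4, whose growth factor-like domains bind ErbB2, ran from 100.01 to 162.2 CPM in tumours (median 114.9 CPM) and from 118.9 to 214.5 CPM in colitis (median 154.3 CPM). The ranges overlapped for each gene. The log2 fold changes were -0.37 ± 0.08 for Muc13 (edgeR adjusted p = 0.000908) and -0.26 ± 0.07 for Muc4 (edgeR adjusted p = 0.00236).

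The value for Muc4 pools opposite directions. In the Il1f9 line it had 147.1 and 162.2 CPM in KO and 156.1 and 123.1 CPM in WT tumours, against 118.9 and 127.1 CPM in KO and 139.1 and 147.6 CPM in WT colitis. In the Il1f5 line it had 100.01 and 101.7 CPM in KO-labelled and 104.6 and 106.6 CPM in WT tumours, against 184.7, 145.3 and 161.1 CPM in KO-labelled and 185.3, 214.5 and 183.6 CPM in WT colitis. Tumours of the Il1f9 line thus overlapped their colitis libraries, while those of the Il1f5 line were all below theirs. Within the Il1f9 line the KO mean was 154.6 CPM in tumours and 123.0 CPM in colitis. The WT means were 139.6 and 143.4 CPM, so by CPM only the KO was higher in tumours. Contrasts of tumour over colitis within a line, added after seeing the data, gave Muc4 0.35 ± 0.10 in the Il1f9 line (edgeR adjusted p = 0.00497) and -0.87 ± 0.09 in the Il1f5 line (edgeR adjusted p = 7.54e-07). The tumour over colitis log2 fold change was higher in the Il1f9 line than in the Il1f5 line by 1.22 ± 0.13 for Muc4 (edgeR adjusted p = 1.88e-05) and 1.69 ± 0.33 for Muc20 (0.00122), and lower by log2 differences of -1.64 ± 0.26 for Muc3 (0.000348) and -1.76 ± 0.53 for Muc6 (0.0218). Those of Muc1 and Muc13 were not called, with differences of 0.62 ± 0.47 and -0.03 ± 0.17. Of all genes 32.8% were called for this difference between lines (16.8% higher and 16% lower). Within a line each of the 6 members was called, against 66.6% of genes in the Il1f9 line (33.2% higher and 33.4% lower) and 60.5% in the Il1f5 line (30.8% higher and 29.7% lower), and only Muc4 changed direction between lines.

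**Figure D2:**
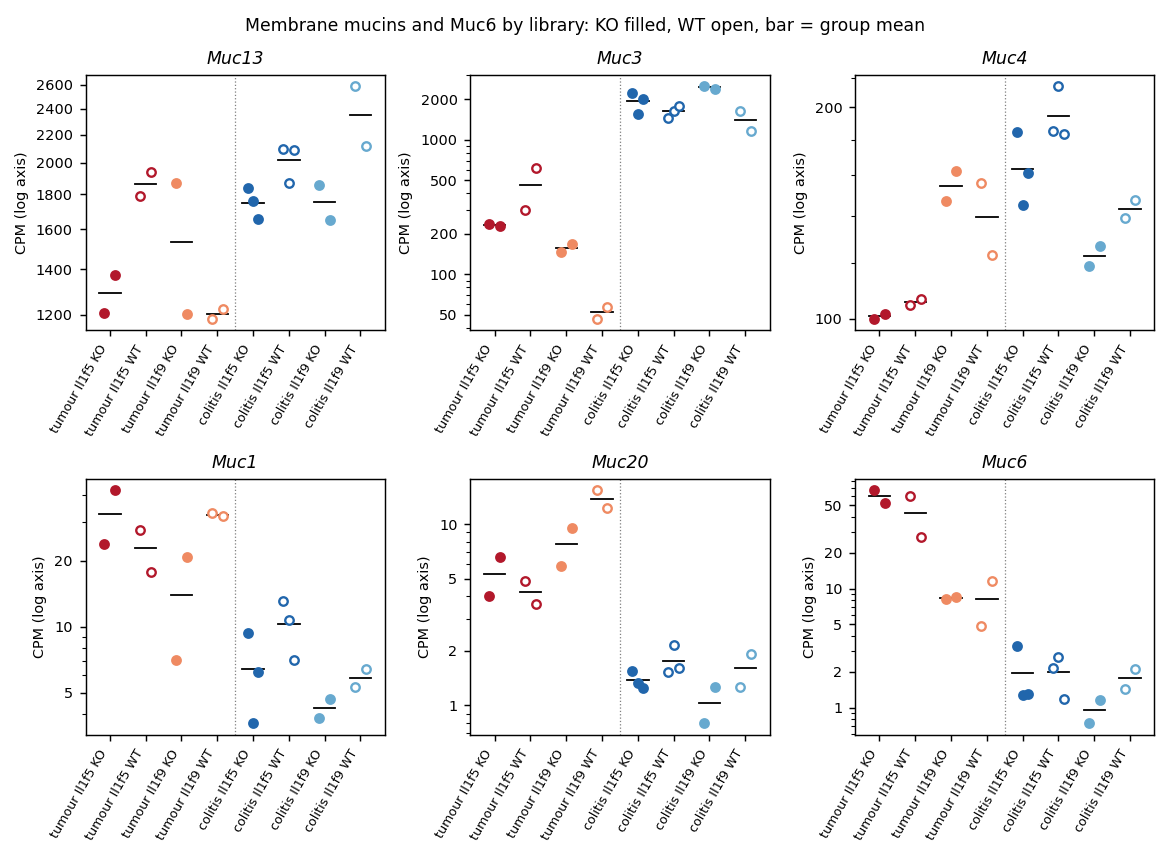
CPM of the 6 members that passed the filter (y axis, log scale) in each library, grouped by tissue, line and genotype, with tumours left of the dotted line, filled points for KO, open points for WT and a bar for each group mean. Muc3 is lower and Muc20 and Muc6 are higher in all 8 tumour libraries than in all 10 colitis libraries, while the points of Muc13, Muc4 and Muc1 overlap between tissues.

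In the wild types of the lines alone, the same 6 members were called in the same directions. No library left out in turn ended a call: over the 18 such fits the log2 fold change ran from 3.56 to 3.88 for Muc6, from -3.48 to -3.21 for Muc3 and from 1.74 to 2.13 for Muc1. The summed level of 10 epithelial genes such as Epcam and Krt8 was 14006 to 24198 CPM in tumours and 14117 to 18694 CPM in colitis, and with libraries scaled to these genes all 6 calls and directions held. Smooth muscle markers summed to 86.3 to 778 CPM in tumours and 1685 to 5806 CPM in colitis, with 10 of 10 lower in tumours. Of all genes 36.1% were called lower and 36.5% higher. Leukocyte markers summed to 835 to 4389 CPM in tumours and 542 to 1776 CPM in colitis, with 5 of 10 higher and 2 lower, and fibroblast markers to 841 to 2251 CPM and 1442 to 4220 CPM, with 1 higher and 6 lower. Markers of salivary and airway glands, which make Muc5b, summed to 733 to 3629 CPM in tumours and 3815 to 9309 CPM in colitis, with 2 of 6 tested higher and 4 lower. Nearly all of that sum was Dmbt1, a scavenger protein that colon epithelium also makes, at 687 to 3523 CPM in tumours and 3578 to 9245 CPM in colitis, whereas Bpifb1 had 1.10 to 6.74 CPM and 0 to 0.12 CPM and Ltf, which neutrophils also make, 18.8 to 565 CPM and 1.70 to 75.6 CPM. Keratins of squamous epithelium, absent from normal distal colon, were present in tumours: Krt14 had 42.5 to 365 CPM there and 0.24 to 2.46 CPM in colitis, Krt5 had 0 to 205 CPM and 0 to 0.69 CPM, and 12 of 15 squamous genes tested were higher and 1 lower. Only 8 of the 19 passed the filter in colitis alone, so many entered through the tumours and had to differ, and that count supports nothing by itself. Over all 19 squamous genes in the tables the sum was 266 to 1443 CPM in tumours and 655 to 2190 CPM in colitis. The part of these cells in the levels of Muc1, Muc4 and Muc20 was not tested.

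Muc6, Muc2, Muc5ac and Muc5b lie in a row on chromosome 7 (GRCm38), and Muc6, at one end of the row, was the member of it that was higher in tumours. Muc6 spans 141633456 to 141655319 on the minus strand. Muc2 spans 141690340 to 141754693, Muc5ac 141788972 to 141819231 and Muc5b 141839070 to 141873084, all on the plus strand. The gaps between them are 35.0 kb, 34.3 kb and 19.8 kb. Muc2 had 92.9 to 2228 CPM in tumours and 3867 to 9689 CPM in colitis, a log2 fold change of -3.89 ± 0.13 (edgeR adjusted p = 7.89e-13), so Muc2 and Muc6, transcribed away from each other, differed in opposite directions. The count of Muc2 was 7.98 to 82.5 times that of Muc6 in tumours (median 20.2) and 2399 to 7918 times in colitis (median 3821).

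Muc5ac and Muc5b, the mucins most often named in gastric and mucinous change, were at or near 0 throughout. Muc5ac had 5 reads in all over the 8 tumour libraries, of which 4 fell in replicate 1 labelled Il1f5 KO, and 2 reads over the 10 colitis libraries. Muc5b had 4 reads over the tumour libraries, all in 1 Il1f5 WT library, and 18 over the colitis libraries, with no library above 4. A count of 0 allows up to 3 counts, or 0.126 to 0.180 CPM in these libraries, for counting error only. Muc5b thus had reads in 1 of 8 tumour and 7 of 10 colitis libraries. Exact two-sided permutation tests of CPM between tissues, added after seeing the data, gave p = 0.595 for Muc5ac and p = 0.119 for Muc5b (0.595 and 0.238 adjusted over the 2 genes), and no fold is given. Of the gastric-type mucins, the data therefore hold Muc6 alone at levels that can be compared.

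**Figure D3:**
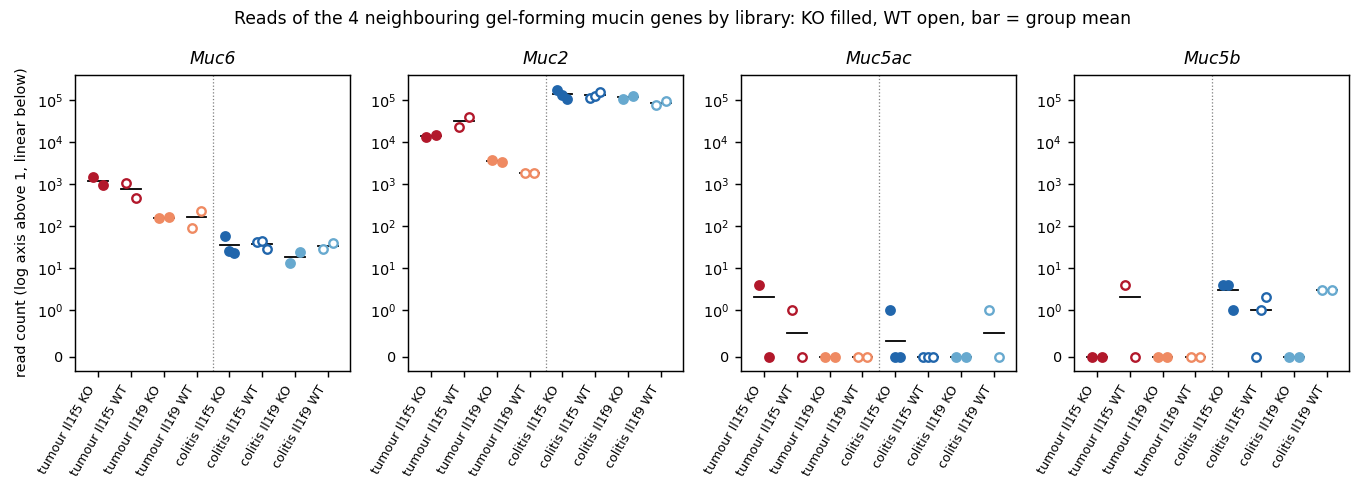
Read counts of the 4 gel-forming mucin genes of chromosome 7 (y axis, log scale above 1 and linear below) by tissue, line and genotype, with tumours left of the dotted line, filled points for KO, open points for WT and a bar for each group mean. Muc6 is higher and Muc2 lower in all tumour libraries, while Muc5ac and Muc5b stay at 0 to 4 reads.

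The stretches around the starts of the 3 mucins that were higher in tumours are shown beside those of Muc3 and Muc2, which were 10.0-fold and 14.9-fold lower. Each holds 250 bases before the RefSeq start and 50 after it (RefSeq, GRCm38.p6), 5' to 3' on the strand of the gene, with matches to 5 short motifs in capitals. The motifs are TATAAA (the TATA box), GATAA (GATA factors), TGTTTA (forkhead factors), GGTCAAAG (HNF4-type nuclear receptors) and GGGGCGG (Sp and KLF factors), searched on each strand and chosen with these sequences in view. A motif match is a description and not a binding site.
Muc6, chr7:141655344-141655643, minus strand: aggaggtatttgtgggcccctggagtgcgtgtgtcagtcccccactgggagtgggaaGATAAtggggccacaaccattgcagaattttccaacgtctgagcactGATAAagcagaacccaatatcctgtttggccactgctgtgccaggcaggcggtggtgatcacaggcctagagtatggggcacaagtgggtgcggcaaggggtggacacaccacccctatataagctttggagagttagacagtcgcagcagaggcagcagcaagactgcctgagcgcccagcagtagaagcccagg
Muc20, chr16:32797386-32797685, minus strand: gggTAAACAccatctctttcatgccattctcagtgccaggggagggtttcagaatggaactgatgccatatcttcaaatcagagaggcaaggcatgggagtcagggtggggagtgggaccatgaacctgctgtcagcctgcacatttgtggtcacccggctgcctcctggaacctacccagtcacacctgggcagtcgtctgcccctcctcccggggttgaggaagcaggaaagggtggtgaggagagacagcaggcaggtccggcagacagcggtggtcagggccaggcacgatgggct
Muc1, chr3:89228806-89229105, plus strand: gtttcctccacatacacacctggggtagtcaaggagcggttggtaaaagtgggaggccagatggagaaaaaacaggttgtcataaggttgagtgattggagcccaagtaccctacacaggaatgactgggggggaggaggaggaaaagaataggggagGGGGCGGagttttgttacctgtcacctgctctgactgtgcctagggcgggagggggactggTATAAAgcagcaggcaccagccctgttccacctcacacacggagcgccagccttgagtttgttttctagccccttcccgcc
Muc3, chr5:137165997-137166296, minus strand: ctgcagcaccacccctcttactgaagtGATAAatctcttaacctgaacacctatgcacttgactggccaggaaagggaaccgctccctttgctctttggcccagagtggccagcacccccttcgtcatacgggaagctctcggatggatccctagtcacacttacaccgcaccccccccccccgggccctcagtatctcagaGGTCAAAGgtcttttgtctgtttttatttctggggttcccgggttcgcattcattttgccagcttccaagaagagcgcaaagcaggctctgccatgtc
Muc2, chr7:141690090-141690389, plus strand: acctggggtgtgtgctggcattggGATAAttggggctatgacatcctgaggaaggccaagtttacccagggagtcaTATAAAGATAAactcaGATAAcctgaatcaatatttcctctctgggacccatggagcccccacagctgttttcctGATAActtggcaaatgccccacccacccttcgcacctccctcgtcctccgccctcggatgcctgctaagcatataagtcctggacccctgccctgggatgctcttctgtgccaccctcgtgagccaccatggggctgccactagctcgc

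Among the 5 starts, no searched motif was shared by mucins that were higher in tumours. Only exact strings were searched. Near variants of TATAAA, such as tatataag in Muc6 and atataag in Muc2, were therefore left unmarked. Muc6 holds GATAA 193 and 146 bases before its start, Muc20 holds TGTTTA on the minus strand of the gene 247 bases before, and Muc1 holds TATAAA at 31 and GGGGCGG at 92 bases before. Muc3 holds GATAA at 223 and GGTCAAAG at 48 bases before its start. Muc2 holds GATAA at 226, 168, 158 and 99 bases and TATAAA at 174 bases before its start, with no overlap among the matches of different motifs. Over 32817 promoters of the same length, 25.4% hold GATAA, 23.2% GGGGCGG, 13.6% TATAAA, 13.4% TGTTTA and 0.963% GGTCAAAG. Muc4 and Muc13 also matched the table, Muc13 with a pair of starts, while Muc5ac and Muc5b are named only.

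Around Muc6, a list of 20 genes of gastric and pyloric-type epithelium was read, of which 19 are in the tables. In tumours the 19 summed to 165 to 262 CPM, against 14.5 to 37.1 CPM in colitis. Of 15 that passed the filter in the joint fit, 14 were higher and 1 was lower in tumours. Only 4 of the 19 passed the filter in colitis alone, so most entered through the tumours, where they are high, and had to differ; the count supports nothing by itself. The 3 of smallest p were Onecut2, a transcription factor, at 22.4 to 98.8 CPM in tumours and 0.05 to 0.26 CPM in colitis, Vsig1, a junction protein of gastric epithelium, at 22.4 to 101 CPM and 0.96 to 10.7 CPM, and Ctse, a gastric aspartic protease, at 47.0 to 104 CPM and 2.31 to 11.5 CPM. Gkn3, a gastrokine of mucous neck cells, had 1.03 to 7.94 CPM in tumours and 0 to 0.23 CPM in colitis.

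Some defining products of gastric glands were close to 0 in tumours and others were present at low levels. Tff2, the trefoil peptide secreted together with Muc6 in the stomach, had 0 to 0.11 CPM in tumours and 0 to 0.24 CPM in colitis. Gkn2 had at most 2 reads in any library, Pgc, the precursor of pepsin C, 0.10 to 1.63 CPM in tumours and 0 to 0.10 CPM in colitis, and Tff1 0.06 to 1.46 CPM and 0 to 0.06 CPM. By contrast Atp4a, a subunit of the gastric proton pump, had 0.59 to 6.52 CPM in tumours and 0 to 0.57 CPM in colitis. Atp4b, another subunit of that pump, had only 0 to 0.22 CPM and 0 to 0.06 CPM. Gkn1 had 0.17 to 4.07 CPM and 0 CPM, and Cldn18, a claudin of stomach and lung, 0.17 to 4.18 CPM and 0 to 0.05 CPM. Anxa10, an annexin of gastric epithelium, had 0.06 to 13.7 CPM and 0 CPM, and Psca 0.42 to 64.7 CPM and 0 to 0.20 CPM. Capn8 was not higher in tumours, at 1.69 to 14.9 CPM there and 5.54 to 14.6 CPM in colitis. A4gnt, the enzyme that caps the glycans of Muc6 in stomach glands, was lower: 0.15 to 4.24 CPM in tumours and 19.7 to 50.2 CPM in colitis (log2 fold change -4.77 ± 0.16, edgeR adjusted p = 6.71e-13). The RNA of Muc6 was thus higher in tumours without higher Tff2 or A4gnt.

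**Figure D4:**
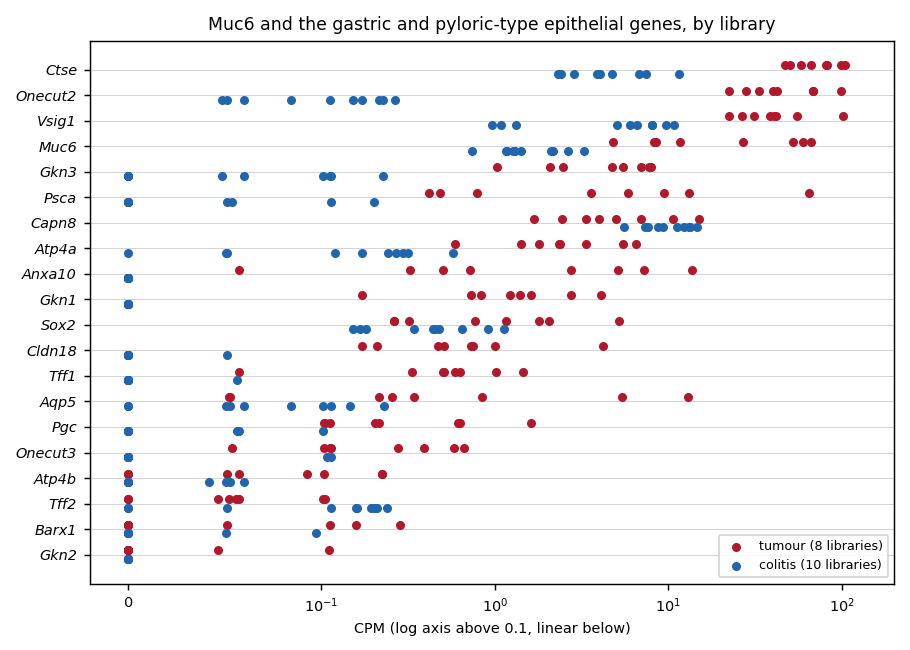
CPM of Muc6 and of the 19 gastric and pyloric-type genes in the tables (x axis, log scale above 0.1 and linear below), with 8 tumour libraries above 10 colitis libraries in each row, ordered by the median in tumours. Ctse, Onecut2 and Vsig1 reach 98.8 to 104 CPM in tumours, while Tff2, Gkn2 and Barx1 stay near 0.

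Enzymes that attach and extend the O-glycans of mucins were mostly lower in tumours: 19 of 26 were lower, 5 higher and 2 not called. Their median log2 fold change was -1.10, against -0.01 over all genes tested. Of all genes 36.1% were called lower and 36.5% higher, the shares to set beside each list here. Gcnt3, the core-branching enzyme of mucous epithelium, had 13.9 to 66.3 CPM in tumours and 287 to 470 CPM in colitis (log2 fold change -3.71 ± 0.12, edgeR adjusted p = 3.77e-13). Fut2, which adds the fucose of the secretor antigen, had 84.7 to 229 CPM in tumours and 191 to 614 CPM in colitis (-1.39 ± 0.08, edgeR adjusted p = 3.17e-10). Goblet cell markers, the company of Muc2, were lower for 13 of 15 and higher for none (median -2.35), led by Zg16, Atoh1 and Bcas1. Of 7 other mucins and mucin-like genes that passed the filter, 5 were lower and 1 was higher in tumours, with Muc2, Muc3a and Mcam of smallest p.

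Among 17 partners and sheddases of membrane mucins, 8 were higher and 7 lower in tumours (median 0.13), against 36.5% and 36.1% of all genes. Erbb2, the receptor bound by Muc4, was lower at 62.2 to 147 CPM in tumours and 193 to 273 CPM in colitis (-1.16 ± 0.08, edgeR adjusted p = 1.15e-09). Adam10, a protease that sheds membrane proteins, was higher at 213 to 390 CPM in tumours and 132 to 219 CPM in colitis (0.79 ± 0.06, edgeR adjusted p = 7.72e-09), as was Capn2, a calpain, by 1.36 ± 0.07 (edgeR adjusted p = 4.44e-11). Of 19 regulators of mucin genes and epithelial identity, 10 were higher and 8 lower, against the same shares of all genes. Klf4, a factor of the differentiated colon, was lower by a log2 fold change of -2.00 ± 0.09, and Foxa3, a forkhead factor of goblet cells, was higher by 1.18 ± 0.07.

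Libraries labelled WT were compared between the lines. With Il1f5 at 0 in the libraries labelled Il1f5 WT, this may not be a comparison of wild types. In tumours 4 of the 6 members tested were called between Il1f9 WT and Il1f5 WT, 2 higher and 2 lower in the Il1f9 line, against 28.5% of 17859 genes tested (16.8% higher and 11.7% lower). Muc20 was 4.37-fold and Muc4 1.77-fold higher, and Muc3 6.67-fold and Muc6 3.96-fold lower in Il1f9 WT tumours. The log2 fold changes, Il1f9 line over Il1f5 line, were 2.13 ± 0.35 for Muc20 (edgeR adjusted p = 0.00362), 0.82 ± 0.16 for Muc4 (0.00762), -2.74 ± 0.32 for Muc3 (0.00155) and -1.99 ± 0.48 for Muc6 (0.0223). Muc2 was 13.9-fold lower, at 97.6 and 92.9 CPM in Il1f9 WT tumours and 1294 and 2228 CPM in Il1f5 WT tumours (edgeR adjusted p = 0.000471). Muc1 and Muc13 were not called, with differences of 0.93 ± 0.50 and -0.22 ± 0.21. The Muc6 and Muc4 calls were lost without Il1f5 WT replicate 1 (edgeR adjusted p = 0.0886 and 0.0636) or without Il1f9 WT replicate 1 (0.087 and 0.0584), and Muc4 also with libraries scaled to epithelial genes (0.356).

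Other cell content differed between these WT tumours as well, where 16.8% of all genes were called higher and 11.7% lower in the Il1f9 line. Goblet cell markers summed to 1129 to 1237 CPM in Il1f9 WT and 4075 to 4464 CPM in Il1f5 WT, with 12 of 15 lower; leukocyte markers to 2501 to 4389 CPM and 835 to 1314 CPM, with 5 of 10 higher; epithelial genes to 18142 to 20709 CPM and 14006 to 15754 CPM, with 6 of 10 higher. Their part in the mucin differences was not tested beyond the scaling to epithelial genes. In colitis only Muc4 was called between the wild types, of 6 members and against 4.93% of 18299 genes (3.25% higher and 1.68% lower): 139.1 and 147.6 CPM in Il1f9 WT, against 185.3, 214.5 and 183.6 CPM in Il1f5 WT (log2 fold change -0.50 ± 0.11, edgeR adjusted p = 0.0272). Muc4 thus stood higher in tumours and lower in colitis of the Il1f9 line. Leaving out Il1f5 WT replicate 1 or 2 (edgeR adjusted p = 0.0824 and 0.113) or Il1f9 WT replicate 1 or 2 (0.0548 and 0.177) ended the colitis call, as did scaling to epithelial genes (0.184).

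Il1f9 KO was compared with its WT in colitis to see whether loss of the agonist alters the mucins. Muc3 was called, 1 of 6 members tested, against 19.6% of all genes (9.59% higher and 9.98% lower). The median log2 fold change was -0.34 over the 6 members and -0.01 over all genes. Muc3 had 2494 and 2381 CPM in Il1f9 KO colons and 1625 and 1158 CPM in Il1f9 WT colons. The groups did not overlap, and the KO libraries were the 2 highest of the 10 colitis libraries. The fold was 1.87 and the log2 fold change 0.90 ± 0.21 (edgeR adjusted p = 0.0116). Muc13 differed in the other direction, at 1858 and 1654 CPM in Il1f9 KO and 2589 and 2115 CPM in Il1f9 WT colons, and was not called (-0.32 ± 0.15, edgeR adjusted p = 0.149). Its count was 0.745 and 0.694 times that of Muc3 in the KO libraries and 1.59 and 1.83 times in the WT libraries.

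The Muc3 call was lost without Il1f9 WT replicate 2 (log2 fold change 0.63, edgeR adjusted p = 0.0775) or KO replicate 1 (0.86, edgeR adjusted p = 0.063). Epithelial genes summed to 18618 to 18694 CPM in Il1f9 KO and 14117 to 16505 CPM in Il1f9 WT colons, with 4 of 10 higher and none lower. With libraries scaled to those genes the Muc3 difference was 0.57 and stayed called (edgeR adjusted p = 0.0201). Goblet cell markers summed to 9658 to 12549 CPM in KO and 5960 to 5993 CPM in WT, with 5 of 15 higher. Leukocyte markers summed to 895 to 927 CPM and 1705 to 1776 CPM, with 7 of 10 lower and 1 higher. Of 10 smooth muscle markers 9 were higher (median log2 fold change 1.15), and of 10 fibroblast markers 7 were lower (-0.83). Of all genes 9.59% were called higher and 9.98% lower. The part of these cells was not tested. The authors' deposited table gives Muc3 a log2 fold change of 0.77 with an adjusted p of 6.2e-05.

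Muc4, Muc1, Muc20 and Muc6 were not called in Il1f9 KO colitis. Their log2 fold changes were -0.12 ± 0.12, -0.35 ± 0.39, -0.51 ± 0.36 and -0.75 ± 0.53. Of all genes in that comparison 9.59% were called higher and 9.98% lower, the shares to set beside each list here. Among the O-glycosylation enzymes 1 of 26 was higher and 3 were lower. Fut2 led these, at 191 and 248 CPM in Il1f9 KO and 614 and 555 CPM in Il1f9 WT colons (-1.31 ± 0.16, edgeR adjusted p = 0.000529). C1galt1, which makes the core of most mucin glycans, was lower by -0.34 ± 0.10, and B3gnt6, a core enzyme of colonic mucin, was the higher one. Of the goblet cell markers, Spink4 was at 436 and 492 CPM in KO and 222 and 209 CPM in WT colons (1.21 ± 0.14, edgeR adjusted p = 0.000385), and Zg16 at 1872 and 2284 CPM and 1143 and 1015 CPM (1.05 ± 0.17, edgeR adjusted p = 0.00196). Muc2 itself was not called (0.55 ± 0.21, edgeR adjusted p = 0.0862). Of 17 partners and sheddases 3 were higher and 6 lower, with Lgals3, a lectin that binds mucin glycans, higher by 1.12 ± 0.19 and Adam17 and Adam10 lower by log2 fold changes of -0.58 ± 0.10 and -0.60 ± 0.10. Of 19 regulators 4 were higher and 1 lower, with Sox9 and Hes1, factors of crypt progenitors, higher and Gata4 lower. None of the 7 other mucins and mucin-like genes or of the 4 gastric genes tested was called by edgeR.

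In tumours of the Il1f9 line no member was called by edgeR, where 0.0168% of 17859 genes were called (0.0056% higher and 0.0112% lower). The median log2 fold change was 0.06 over the 6 members and -0.02 over all genes. Muc3 had 145.4 and 169.1 CPM in Il1f9 KO tumours and 46.9 and 57.4 CPM in Il1f9 WT tumours. Its log2 fold change was 1.57 ± 0.31 at an unadjusted p of 0.000907 and an edgeR adjusted p of 0.348. Muc1 stood at 7.02 and 20.7 CPM in KO and 32.9 and 31.8 CPM in WT tumours (-1.25 ± 0.50, edgeR adjusted p = 0.568), and Muc20 at 5.90 and 9.55 CPM and 15.3 and 12.3 CPM (-0.87 ± 0.33, edgeR adjusted p = 0.539). These 3 members had an unadjusted p under 0.05, as did 1553 of the 17859 genes. DESeq2's Wald test, as the alternative tool, called 1 member, Muc3 (log2 fold change 1.59, DESeq2 adjusted p = 5.68e-05). Of 17859 genes it called 82 higher and 82 lower. The authors' deposited table gives Muc3 1.60 with an adjusted p of 3.74e-08. Over the 4 fits with 1 library left out the Muc3 difference stayed between 1.46 and 1.68. Those of Muc1 and Muc20 kept their direction and varied more in size. Without KO replicate 1 they were -0.68 and -0.58, and without KO replicate 2 they were -2.22 and -1.25. Without WT replicate 1 they were -1.19 and -0.67, and without WT replicate 2 they were -1.32 and -1.06. KO replicate 2 also held more stroma, with Des at 157 CPM and Dcn at 632 CPM, against 6.38 and 142 CPM in KO replicate 1. Smooth muscle markers summed to 86.3 to 778 CPM in Il1f9 KO and 104 to 166 CPM in Il1f9 WT tumours, and fibroblast markers to 841 to 2251 CPM and 1115 to 1262 CPM; their part was not tested.

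Muc13, Muc4 and Muc6 differed little between Il1f9 KO and WT tumours, by 0.33 ± 0.21, 0.12 ± 0.16 and 0.01 ± 0.48 on the log2 scale. Intervals of 2 standard errors reach from -0.10 to 0.75 for Muc13, from -0.21 to 0.44 for Muc4 and from -0.95 to 0.96 for Muc6, the widest of the 3. Of the 12 gene lists, none had a member called by edgeR in Il1f9 KO tumours. Muc2 had 201.5 and 170.9 CPM in Il1f9 KO tumours and 97.6 and 92.9 CPM in Il1f9 WT tumours (0.94 ± 0.26, edgeR adjusted p = 0.416). The authors' deposited table gives Muc2 0.97 with an adjusted p of 0.0087.

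Libraries labelled Il1f5 KO were compared with Il1f5 WT in colitis. Muc4 was called, 1 of 6 members tested, against 24.7% of all genes (13.7% higher and 11% lower). The median log2 fold change was -0.29 over the 6 members and -0.01 over all genes. Muc4 had 184.7, 145.3 and 161.1 CPM in colons labelled Il1f5 KO and 185.3, 214.5 and 183.6 CPM in Il1f5 WT colons, so the groups overlapped at 1 library. The fold was 1.24 and the log2 fold change -0.31 ± 0.10 (edgeR adjusted p = 0.0356). The call was lost without Il1f5 WT replicate 1 or 2 (edgeR adjusted p = 0.0685 and 0.152), without KO replicate 2 or 3 (0.127 and 0.0594), and with the libraries scaled to epithelial genes, where the difference was -0.08 (0.632). Those epithelial genes summed to 14343 to 15882 CPM in colons labelled Il1f5 KO and 15961 to 16920 CPM in Il1f5 WT colons, with 3 of 10 lower.

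The other membrane mucins were not called in that comparison. Muc1 had 9.38, 3.63 and 6.22 CPM in colons labelled Il1f5 KO and 13.0, 10.8 and 7.02 CPM in Il1f5 WT colons (-0.75 ± 0.31, edgeR adjusted p = 0.0988), and it was called without KO replicate 1 (-1.10, edgeR adjusted p = 0.0425). Muc13 was at 1838, 1757 and 1654 CPM in KO-labelled and 2097, 1870 and 2086 CPM in WT colons and was not called (-0.27 ± 0.12, edgeR adjusted p = 0.122). The authors' deposited table gives Muc13 -0.27 with an adjusted p of 0.0144. Muc3, Muc20 and Muc6 differed by 0.18 ± 0.17, -0.42 ± 0.28 and -0.10 ± 0.41.

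Of the O-glycosylation enzymes 11 of 26 were lower and 1, St3gal1, was higher in that comparison. Of all genes 11% were called lower and 13.7% higher, the shares to set beside each list here. Galnt3, which starts O-glycans, was at 83.5, 80.5 and 80.0 CPM in colons labelled Il1f5 KO and 132, 135 and 116 CPM in Il1f5 WT colons (-0.71 ± 0.08, edgeR adjusted p = 0.000618). Fut2 was at 315, 326 and 237 CPM and 552, 564 and 532 CPM (-0.97 ± 0.13, edgeR adjusted p = 0.0014). Of 19 regulators 10 were lower and none higher, led by the epithelial transcription factors Ehf, Foxa1 and Klf5 at log2 fold changes of -0.82 ± 0.13, -0.50 ± 0.09 and -0.39 ± 0.08. The gastric genes Vsig1 and Ctse, 2 of 4 tested, were lower by log2 fold changes of -2.79 ± 0.28 and -1.37 ± 0.36. Goblet cell markers were mixed, 5 of 15 higher and 2 lower, with Clca1 and Tff3 among the higher and Creb3l1 among the lower. Of 17 partners and sheddases 2 were higher and 3 lower, among them Met, the receptor bound by MUC20 in human cells, lower by a log2 fold change of -0.50 ± 0.08. Of 7 other mucins and mucin-like genes 4 were higher. They were Emcn and Mcam, proteins of vessels, Muc3a (0.54 ± 0.17, edgeR adjusted p = 0.0435), and Muc16, a membrane mucin of mesothelium. Muc16 was at 2.46, 2.46 and 2.88 CPM against 0.95, 0.78 and 1.05 CPM in WT (1.41 ± 0.28, edgeR adjusted p = 0.00657). Beside these, smooth muscle markers summed to 3863 to 5806 CPM in colons labelled Il1f5 KO and 2288 to 2534 CPM in WT (8 of 10 higher), and fibroblast markers to 3156 to 3525 CPM and 1948 to 2135 CPM (9 of 10 higher). The part of these cells was not tested.

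In tumours of the Il1f5 line no member was called by edgeR, where 0.028% of genes were called (0.0112% higher and 0.0168% lower). An unadjusted p under 0.05 was found for 4106 of 17859 genes and for 1 member. That was Muc3, at 235.0 and 228.9 CPM in tumours labelled Il1f5 KO and 300.6 and 620.9 CPM in Il1f5 WT tumours (-0.83 ± 0.30, edgeR adjusted p = 0.16). DESeq2's Wald test called it (-0.86, DESeq2 adjusted p = 0.0366), with 705 genes higher and 574 lower. The authors' deposited table gives Muc3 -0.81 with an adjusted p of 0.302. Without Il1f5 WT replicate 2, the higher of the WT libraries, the difference was -0.18 (edgeR adjusted p = 0.746). Muc13 was at 1207 and 1373 CPM in KO-labelled and 1788 and 1943 CPM in WT tumours (-0.37 ± 0.21, edgeR adjusted p = 0.331). Muc1, Muc20, Muc6 and Muc4 differed by 0.69 ± 0.49, 0.48 ± 0.35, 0.64 ± 0.45 and 0.10 ± 0.16. Muc2 had 601.2 and 822.3 CPM in KO-labelled and 1294 and 2228 CPM in WT tumours (-1.15 ± 0.26, edgeR adjusted p = 0.0811). The authors' deposited table gives Muc2 -1.14 with an adjusted p of 0.000114.

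**Figure D5:**
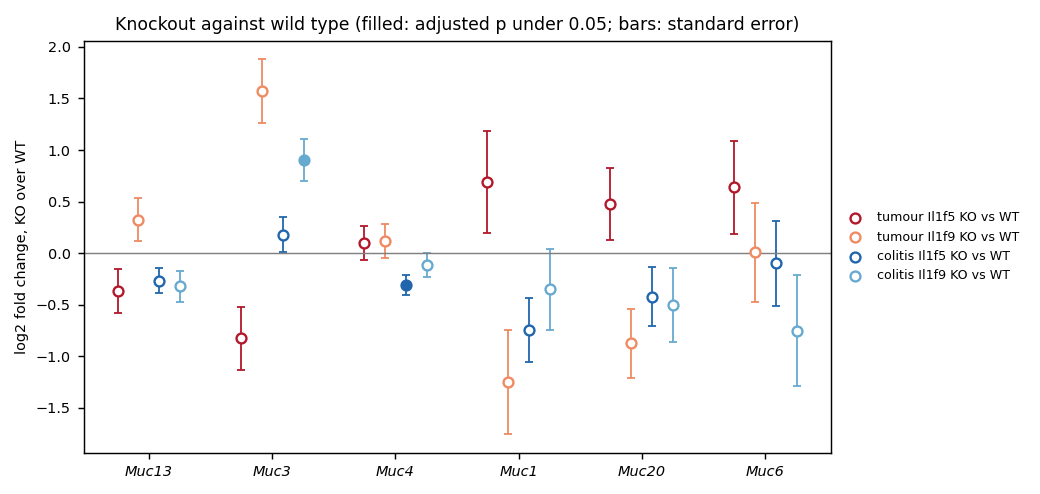
Log2 fold change of KO over WT (y axis) for the 6 members tested, in tumours and colitis of each line, as points with bars of 1 standard error; filled points have an edgeR adjusted p under 0.05. The filled points are Muc4 in colitis labelled Il1f5 KO (-0.31) and Muc3 in Il1f9 KO colitis (0.90), while Muc3 in Il1f9 KO tumours (1.57) is open.

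Whether the labelled knockouts differed in their effect between lines was tested directly. The sizes as well as the directions of these differences rest on the doubted Il1f5 labels, since the effects of the lines add where the labels are exchanged. In tumours the Muc3 effect was higher in the Il1f9 line by 2.39 ± 0.43 on the log2 scale (unadjusted p = 0.000506, edgeR adjusted p = 0.0786), and the Muc2 effect by 2.09 ± 0.37 (edgeR adjusted p = 0.0715). The Muc1 and Muc20 effects were lower there by log2 differences of -1.94 ± 0.70 and -1.35 ± 0.48 (edgeR adjusted p = 0.241 and 0.218). No member was called by edgeR, against 0.0784% of 17859 genes (0.0448% higher and 0.0336% lower). An unadjusted p under 0.05 was found for 4 of the 6 members and for 3076 of all genes. DESeq2's Wald test called 2 members, Muc3 and Muc1, with 299 genes higher and 285 lower. In colitis the Muc3 effect differed by 0.72 ± 0.26 (edgeR adjusted p = 0.0645). No member was called by edgeR, against 24.8% of 18299 genes (12% higher and 12.8% lower). An unadjusted p under 0.05 was found for 1 member and for 7142 of all genes. DESeq2's Wald test called 1 member, with 2513 genes higher and 2485 lower. With the Il1f5 labels exchanged, an alternative added after seeing the data, the tumour differences were 0.74 ± 0.43 for Muc3 (edgeR adjusted p = 0.439), -0.21 ± 0.37 for Muc2 (0.81), -0.56 ± 0.70 for Muc1 (0.731) and -0.40 ± 0.48 for Muc20 (0.719), and the colitis difference of Muc3 was 1.08 ± 0.26 (0.017).

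Whether a knockout acted differently in tumours and colitis was tested over all 18 libraries. In the Il1f5 line no member was called by edgeR, against 18.1% of genes (10.8% higher and 7.23% lower). An unadjusted p under 0.05 was found for 3 members and for 6514 of 19514 genes. DESeq2's Wald test called 1 member, with 2162 genes higher and 2020 lower. The Muc3 effect was lower in tumours by -0.99 ± 0.36 (edgeR adjusted p = 0.0655) and the Muc1 effect higher by 1.44 ± 0.62 (0.123). Muc2, the neighbour of Muc6, was called, with an effect lower in tumours by -1.25 ± 0.31 (edgeR adjusted p = 0.0145). In the Il1f9 line no member was called by edgeR, against 2.47% of genes (1.65% higher and 0.82% lower). DESeq2's Wald test called no member, with 692 genes higher and 606 lower. Muc13 was the 1 member with an unadjusted p under 0.05, which 3779 of 19514 genes had. Its effect was higher in tumours by 0.66 ± 0.25 (edgeR adjusted p = 0.156). The comparisons of this and the paragraph before share their libraries with the genotype comparisons.

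For each member with enough reads, the genes whose log2 CPM followed it most closely over the 18 libraries were found by the root mean square difference after centring. For Muc13 these were Strn and Arhgap12 at 0.113 and 0.141 log2 units, against a median of 0.649 over all genes. For Muc4 they were Ehd4 and Acadl at 0.154 and 0.171 (median 0.687). For Muc3 they were Btnl4 and Aldh1b1 at 0.386 and 0.410 (median 1.86), for Muc20 Mex3b and Snx10 at 0.370 and 0.378 (median 1.41), for Muc1 Ccl22 and Zfat at 0.438 and 0.505 (median 1.26), and for Muc6 Zfp469 and Pycr1 at 0.622 and 0.629 (median 2.11). The likeness rests largely on the split between tissues, and it describes these libraries alone.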

How the data were processed

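Poly(A) RNA (10 µg per sample, per the labels' protocols) was sequenced as 150-bp pairs with a kit that does not mark strand. Trim Galore 0.6.4, HISAT2 2.0.5 and featureCounts 2.0.0 are named in the submitters' processing notes, and no source used here names the genome build. Counts per gene were deposited by the authors in 3 tables, together with the authors' FPKM values per library. The authors' deposited tables also hold a log2 fold change and an adjusted p-value for each genotype comparison. The gene coordinates of the tables matched GENCODE M21 (GRCm38) for 53499 of 54532 identifiers. The tables were joined by gene identifier, and 11 names changed to dates in the colitis table were taken from the tumour tables.

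CPM is the count over the library total (16621611 to 23776174 counts). Genes were filtered with filterByExpr, which left 18299 genes in colitis, 17859 in tumours and 19514 in all libraries. They were scaled by TMM and tested with edgeR 4.0.16 (quasi-likelihood, group means, R 4.3.3), with Benjamini-Hochberg adjustment over all genes tested. Calls are at an adjusted p under 0.05, and n is 2 or 3 per group. A standard error is the log2 fold change over the root of its F value. The alternatives were DESeq2 1.42.0 size factors and Wald test, no filter, a replicate block, scaling to 10 epithelial genes, the compared groups or WT groups alone, and leaving out each library. Tumour against colitis within each line, exchanged Il1f5 labels and exact permutation tests of Muc5ac and Muc5b were added after seeing the data. The code was tested on simulated counts.

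All 8 mucins are named, with Muc2 as the gene between Muc6 and Muc5ac, up to 3 called members of smallest p per gene list and comparison, and the 2 genes nearest to each member. 1 gene that this rule names is left out of the text. Krt5, Epcam, Krt8, Dmbt1, Bpifb1, Ltf, Des, Dcn, Gkn1, Gkn2, Gkn3, Tff1, Tff2, Pgc, Atp4a, Atp4b, Capn8, Cldn18, Anxa10, Psca and Barx1 are named outside it, after their values were seen. Members and the 12 lists were chosen with earlier results of these data known. Floors cover counting error only, and intervals of 2 standard errors include the spread between libraries.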

Additional observations from a re-analysis of the deposited data

Results flagged for a closer look

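The difference between tumours and colitis was itself different between the lines for 4 mucins, by edgeR's quasi-likelihood test with Benjamini-Hochberg adjustment over all genes. On the log2 scale the Il1f9 line minus the Il1f5 line was 1.22 for Muc4 and 1.69 for Muc20, against -1.64 for Muc3 and -1.76 for Muc6. For Muc4 the direction differed as well, averaged over genotypes, with tumours higher than colitis in the Il1f9 line and lower in the Il1f5 line. In Il1f9 WT its mean was 139.6 CPM in tumours and 143.4 CPM in colitis. By CPM only Il1f9 KO was higher in tumours, at 154.6 against 123.0 CPM. No alternative was run for the contrasts within a line. Tumours of the lines are in separate tables, so that line and table cannot be told apart in these values. Muc2 was called for a different genotype effect between tissues in the Il1f5 line, where KO over WT was lower in tumours than in colitis by -1.25, with the direction resting on the Il1f5 labels.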

How the results depend on the processing

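Depth limits Muc5ac and Muc5b, which did not pass the filter and have an adjusted p of 1 where the authors' deposited table gives one, and Muc6 and Muc20 in colitis, at 0.74 to 3.26 CPM and 0.80 to 2.17 CPM. In tumours against colitis all 6 calls held under every alternative run and with each of 18 libraries left out, but Muc4 turned to 0.35 within the Il1f9 line. The number of members called differed elsewhere, and the cause was not tested. In colitis labelled Il1f5 KO against WT, 1 call became 0 with the replicate block (Muc4, edgeR adjusted p = 0.0734) and 0 with the compared groups alone (0.0557), and in colitis of the WT lines 1 became 0 with the replicate block (0.085) and 0 with scaling to epithelial genes. The labels do not pair the numbers and the check did not either: same-numbered libraries of the Il1f5 line in colitis had correlations of 0.0033, -0.15 and -0.20 of their deviations, so the block says nothing of effect size. Scaling to epithelial genes gave 3 calls in Il1f9 KO colitis, 1 in the colitis difference between KO effects and 1 in the tissue difference of the Il1f5 KO effect, where Muc4 turned to -0.0154 (edgeR adjusted p = 0.973); this scaling shifted the median of all genes by -0.60 to 0.22. Without the filter there were 2 calls in each tumour genotype comparison, 2 in the tumour difference between KO effects, 1 in that of colitis and 2 in the tissue difference of Il1f5. With the Il1f5 labels exchanged there was 1 call in the colitis difference between KO effects and 0 in colitis of the WT lines (Muc4 -0.19, edgeR adjusted p = 0.373), and Muc13 turned to -0.0408 in the tumour difference (0.964). DESeq2's Wald test gave 1 call in each tumour genotype comparison, 2 in the tumour difference between KO effects, 1 in that of colitis and 1 in the tissue difference of Il1f5. With 1 library left out, calls ranged from 0 to 2 in colitis labelled Il1f5 KO, from 0 to 1 in Il1f9 KO colitis, in both differences between KO effects, in both tissue differences of a KO effect and in colitis of the WT lines, and from 2 to 4 in tumours of the WT lines. Muc3 was called in the tumour difference between KO effects without Il1f5 WT replicate 1 (2.83, edgeR adjusted p = 0.0122), Muc1 without Il1f9 KO replicate 2 (-2.92, 0.04), and Muc3 in the colitis difference without Il1f9 WT replicate 1 (1.05, 0.00924). Other libraries weakened them: Muc3 was 1.74 without Il1f5 WT replicate 2 (edgeR adjusted p = 0.152), Muc1 -1.39 without Il1f9 KO replicate 1 (0.142), and Muc3 in colitis 0.44 without Il1f9 WT replicate 2 (0.241). In the tissue differences Muc3 was called without tumour Il1f5 WT replicate 1 (-1.44, edgeR adjusted p = 0.0131) and Muc13 without tumour Il1f9 KO replicate 2 (0.95, 0.0213), against -0.37 without tumour Il1f5 WT replicate 2 (0.416) and 0.32 without tumour Il1f9 KO replicate 1 (0.444). Muc6 between WT tumours was lost with the compared groups alone (edgeR adjusted p = 0.0649).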
